A study of Danio rerio with 5 samples.

Results

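A set of 160 array probe sets, of 15502 that measure zebrafish transcripts, was graded across 3 pools of zCdx1b transgenic fish. The rule took probe sets whose deposited log2 value was lowest in transgenic pool 1, intermediate in pool 2 and highest in pool 3, with pool 3 at least 3 log2 units (8-fold) above pool 1 and at a log2 value of at least 7. Another 41 probe sets met these numbers and were left out by symbol, 24 of them for genes of the egg coat and oocyte and 17 for genes of the contractile apparatus of muscle. Of the 160, 71 carried 1 gene symbol, 36 carried a clone or locus name, 14 carried several symbols and 39 carried none. The probe sets with 1 symbol or clone name stood for 93 genes. The transgenic values chose these probe sets, so their levels in the transgenic pools are given as a description. The wild-type arrays took no part in the choice.

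The study measured total RNA of dissected upper digestive tract on Affymetrix-type arrays, with 1 array for each pool of adult zebrafish. The transgenic group was 3 pools of zCdx1b fish, made by injecting AB* eggs with a Tol2 construct that carries zebrafish Cdx1b and EGFP behind a keratin 5 promoter fragment, named zK5p in the construct. The wild-type group was 2 pools of AB fish without the transgene. All fish were 3 months old, and 3 were combined in each pool. The labels call the pools biological replicates and do not give the sex of the fish, the number of founder insertions or the ends of the dissected stretch. Cdx1b belongs to the caudal-type homeobox factors, which act in gut development, and keratin 5 is a keratin of stratified epithelium.

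A growing fish oocyte stores messenger RNA for the embryo, including cyclins, translational regulators and transcription factors that act after fertilisation, and surrounds itself with an egg coat. The upper digestive tract of a fish is lined by stratified epithelium held together by keratins, desmosomes and claudins, and it lies against bone, connective tissue and striated muscle. In these bulk samples, fewer cells of a type and less RNA per cell cannot be told apart.

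All 5 arrays had a mean log2 value of 4.89. The transgenic arrays correlated with each other at r = 0.912 to 0.983 over all probe sets, the wild-type arrays at r = 0.941, and arrays of different groups at r = 0.726 to 0.822. Those correlations run across genes, which are not independent replicates. Each array's background bound was the highest of its 44 controls of bacterial or tag origin, at log2 values of 3.72 to 3.95 on the transgenic arrays and 3.64 to 4.13 on the wild-type arrays. All 18 spike-in controls were lower in transgenic pool 3 than in transgenic pool 1, with a median difference of -0.65, opposite to the graded probe sets. The tissue label was checked against marker lists. Of 23 measured genes of the intestinal absorptive epithelium, 1 was at or below the bound in transgenic pool 1 and 0 in the other two transgenic pools, whereas 12 were at or below it in both wild-type pools. Of 40 genes of squamous epithelium, 0 to 7 were at or below the bound on a transgenic array and 0 on either wild-type array. In the wild-type pools the label was thus matched by markers of stratified epithelium and not by most markers of intestine. The number of arrays limits the precision of every value below.

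The 160 graded probe sets fell into 2 main kinds when set against the wild-type arrays. In 120 of them (75%) both wild-type values lay between transgenic pools 1 and 3. In 34 (21.2%) both wild-type values lay above transgenic pool 3. None had both wild-type values below transgenic pool 1, and 6 (3.75%) had none of these positions. As background, 30.8% of the 10335 probe sets tested between the groups had all 3 transgenic values below both wild-type values, and 11.7% were called lower in transgenic pools by limma. Over all 15502 probe sets, with no condition on the order of the transgenic pools, the shares were 3.59% between pools 1 and 3, 40.1% above pool 3 and 24.9% below pool 1. A position between pools 1 and 3 is easier to reach where those pools lie far apart, and the rule set them at least 3 units apart, so the shares are not a test. Transgenic pool 1 was below both wild-type pools in 157 of the 160. The rule chose probe sets with a low value in that pool, so this count is not a test either.

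**Figure D1:**
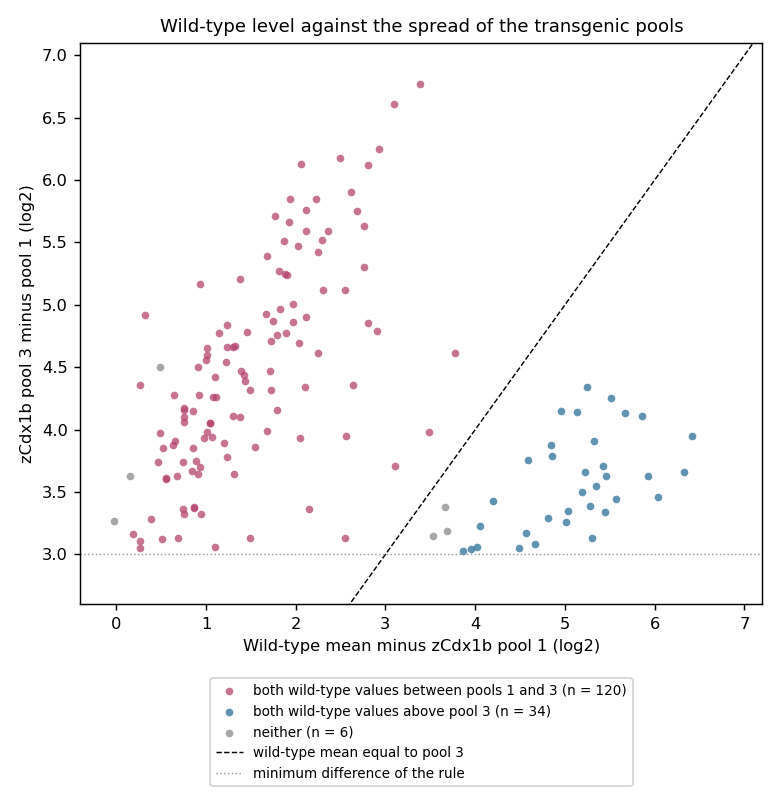
Each point is 1 of the 160 graded probe sets. The horizontal axis is the wild-type mean minus transgenic pool 1 and the vertical axis is transgenic pool 3 minus transgenic pool 1, both in log2 units; points left of the dashed line have a wild-type mean below transgenic pool 3. The 120 probe sets with wild type between and the 34 with wild type above lie on opposite sides of that line by definition. The dotted line marks the minimum difference of 3.

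The 120 probe sets with wild type in between had median log2 values of 3.93, 6.80 and 8.32 in transgenic pools 1, 2 and 3, and of 5.61 and 5.19 in wild-type pools 1 and 2. By the definition of this kind, transgenic pool 3 was above both wild-type pools and transgenic pool 1 below both in all 120. Transgenic pool 2, which the rule placed between pools 1 and 3, was above both in 111 of 120, and this too is a description. The 34 probe sets with wild type above had medians of 5.07, 7.87 and 8.47 in transgenic pools 1, 2 and 3, and of 10.29 and 10.23 in the wild-type pools. There all 3 transgenic pools were below both wild-type pools by definition. The wild-type mean stood a median of 31.8% of the way up the span between transgenic pools 1 and 3 in the first kind, and at 145% of that span in the second.

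Transgenic pool 2 stood nearer to pool 3 than to pool 1 in both kinds, at a median of 65.6% of the span where wild type lay between and 78.8% where wild type lay above. Pool 3 exceeded pool 1 by a median of 4.37 log2 units in the first kind (range 3.05 to 6.78) and of 3.52 in the second (range 3.03 to 4.34). Many of these differences rest on a pool 1 value at background. Of the 160 probe sets, 69 were at or below the bound in transgenic pool 1, and 0 in either of the others, against 1 in wild-type pool 1 and 17 in wild-type pool 2. With the bound in place of those pool 1 values, the median difference was 4.15 in the first kind and 3.48 in the second.

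**Figure D2:**
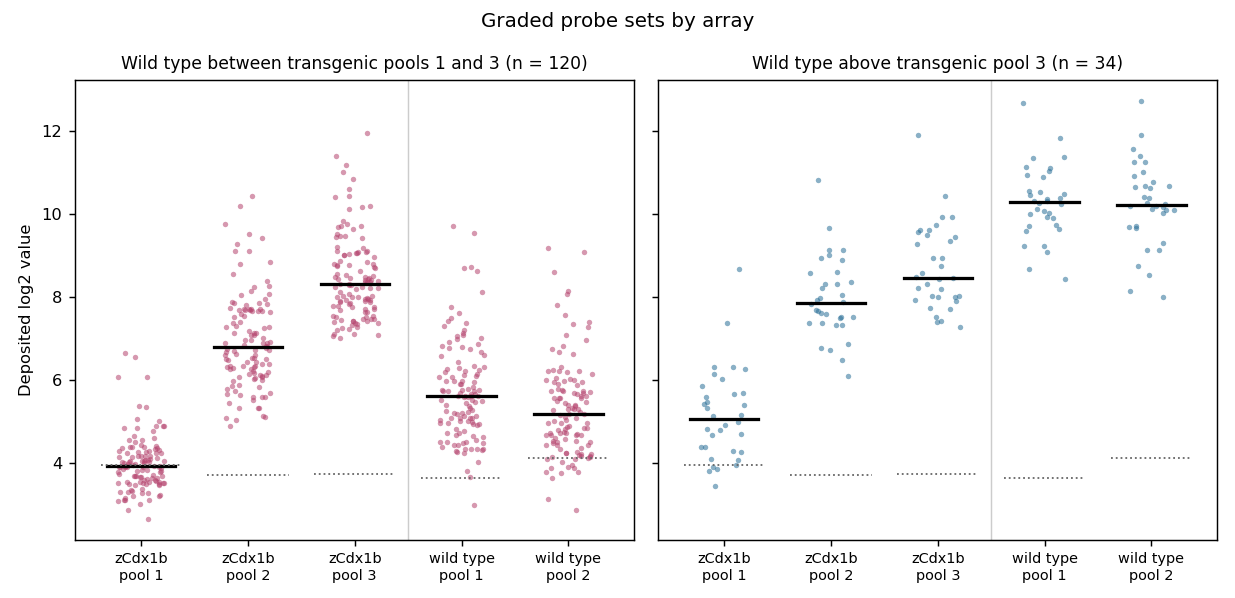
Deposited log2 values of the graded probe sets on each array, with 120 whose wild-type values lay between transgenic pools 1 and 3 (left) and 34 whose wild-type values lay above transgenic pool 3 (right). Each point is a probe set, the black bar is the median and the dotted line is the background bound of the array. On the left the wild-type medians of 5.61 and 5.19 lie between the medians of transgenic pools 1 and 2, and on the right those of 10.29 and 10.23 lie above every transgenic median.

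The graded probe sets also took up very different shares of the arrays' summed signal on the linear scale. They made up 0.24%, 1.92% and 4.62% of it in transgenic pools 1, 2 and 3, against 3.72% and 3.91% in the wild-type pools. The 120 with wild type in between accounted for 0.128%, 1.23% and 3.39% in the transgenic pools, against 0.569% and 0.478% in the wild-type pools. The 34 with wild type above accounted for 0.101%, 0.637% and 1.12% in the transgenic pools, against 2.96% and 3.36% in the wild-type pools.

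The order of pools that defined the set was nearly the only one seen among large differences. Among probe sets whose 3 transgenic values spanned at least 3 units and whose highest value was at least 7, counting those later left out by symbol, 201 had pool 1 lowest and pool 3 highest with pool 2 between. A further 3 had pool 1 lowest and pool 2 highest, 1 had pool 2 lowest and pool 3 highest, and the other 3 orders had 0. Over all probe sets the most frequent order was the opposite one, with pool 3 lowest and pool 1 highest, in 47.8%, against 21.0% with the order of the graded set. The median difference between pools 3 and 1 over all probe sets was -0.14, with quartiles of -0.34 and 0.13.

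The first kind included genes of the oocyte and of cell division. The gene btg4, whose product is needed to clear maternal messenger RNA in the egg, had log2 values of 3.55, 6.50 and 8.72 in transgenic pools 1, 2 and 3 and of 4.94 and 4.03 in wild-type pools 1 and 2. Cyclin genes ccna1 and ccnb1 reached 8.23 and 8.49 in transgenic pool 3, where ccna1 is the germ-line A-type cyclin and ccnb1 a mitotic B-type cyclin. For ccna1, transgenic pools 1 and 2 stood at 4.13 and 6.43 and the wild-type pools at 4.98 and 4.81. In ccnb1, transgenic pools 1 and 2 stood at 4.17 and 6.90 and the wild-type pools at 6.08 and 5.23. In all 3 genes the transgenic values enclosed both wild-type values, so the groups overlapped.

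A further 3 genes of the oocyte list had the same layout. The gene cpeb1b, for a protein that binds cytoplasmic polyadenylation elements in oocyte messengers, had 3.68, 6.26 and 7.53 in the transgenic pools, against 4.93 and 4.12 in the wild-type pools. For birc5b, a survivin gene of the chromosomal passenger complex, the log2 values were 3.91, 5.59 and 7.65 in the transgenic pools, against 4.77 and 4.53 in the wild-type pools. The B-type cyclin gene ccnb2 had 3.47, 5.70 and 7.38 in the transgenic pools, against 4.35 and 3.89 in the wild-type pools. Transgenic pool 1 was at or below background for btg4, cpeb1b, birc5b and ccnb2, and wild-type pool 2 was at or below background for btg4, cpeb1b and ccnb2. Transgenic pools 2 and 3 were above both wild-type pools for each of these genes.

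Embryonic transcription factors that the zebrafish egg supplies were in the set as well. The homeobox gene nanog, with values of 4.42, 6.40 and 7.47 in the transgenic pools, against 4.52 and 4.83 in the wild-type pools, was among the probe sets just inside the minimum difference. Its wild-type mean stood at 8.33% of the span between transgenic pools 1 and 3, among the lowest positions of the named genes. The POU-domain gene pou5f3 and the TGF-beta ligand gene gdf3, both chosen after their values were seen, had wild-type positions of 8.86% and 13.5%. The importin gene kpna7, known from oocytes of mammals, had 3.38, 5.43 and 7.01 in the transgenic pools, against 3.74 and 3.32 in the wild-type pools. It was 1 of the 6 probe sets outside both kinds, because wild-type pool 2 fell below transgenic pool 1, with all 3 low values at or near background. The gene gtsf1, for a protein of the piRNA pathway that silences transposons in germ cells, had 3.51, 5.52 and 7.11 in the transgenic pools, against 4.34 and 3.80 in the wild-type pools.

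Other named genes of the first kind had less specific roles. The gene gtf3ab encodes transcription factor IIIA, which binds the 5S ribosomal RNA gene and is abundant in the oocytes of frogs, and it had 3.21, 5.79 and 7.71 in the transgenic pools, against 4.45 and 3.80 in the wild-type pools. The ribonucleotide reductase family gene rrm2l had 4.04, 6.82 and 8.38 in the transgenic pools, against 6.59 and 5.70 in the wild-type pools. The mitochondrial inner membrane gene mpv17 was covered by 3 graded probe sets, the brightest with 4.18, 8.07 and 9.77 in the transgenic pools, against 6.92 and 5.66 in the wild-type pools. The thymosin beta gene tmsb5, of a family that binds actin monomers, differed most between pools 3 and 1 among the genes with a symbol. Its log2 values were 3.79, 7.52 and 9.69 in the transgenic pools, against 7.06 and 5.77 in the wild-type pools. The autophagosome gene map1lc3c, the amino acid transporter gene slc7a1b, sinup, cdca7a, qdprb.4 and the alpha-2-macroglobulin family gene a2m3a had pool 3 between 3.36 and 4.84 units above pool 1, with wild-type positions of 18.4% to 43.0%.

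In a few genes of the first kind the wild-type mean stood in the upper part of the transgenic range. The gene thy1, for a glycoprotein of the cell surface, had 4.51, 7.82 and 9.12 in the transgenic pools, against 8.74 and 7.81 in the wild-type pools. The osteoclast phosphatase gene acp5a had 3.64, 6.71 and 8.43 in the transgenic pools, against 7.03 and 6.06 in the wild-type pools. For slc16a3b, of the monocarboxylate transporter family, the transgenic values were 4.24, 6.12 and 7.37 and the wild-type values 6.22 and 7.35. The wild-type mean stood at 81.7%, 60.6% and 81.3% of the span for thy1, acp5a and slc16a3b, against the median of 31.8% for their kind. The lysozyme gene lyz had 5.86, 7.22 and 9.24 in the transgenic pools, against 10.62 and 8.42 in the wild-type pools, and its wild-type pools lay on either side of transgenic pool 3.

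The second kind, with wild type highest, held genes of stratified epithelium. The type I keratin gene krt1-19d had 3.46, 6.77 and 7.41 in the transgenic pools, against 9.72 and 10.03 in the wild-type pools. For anxa1c, an annexin gene, the values were 5.0, 8.06 and 8.46 in the transgenic pools, against 11.14 and 10.93 in the wild-type pools. The cell adhesion gene epcam had 5.41, 8.32 and 9.29 in the transgenic pools, against 10.40 and 10.10 in the wild-type pools. In each of these genes the wild-type pools were above every transgenic pool, and transgenic pool 1 stood well apart from the other two. The same layout held for anxa1b, the tight junction genes cldni and cldnb and the aquaglyceroporin gene aqp3a, whose transgenic pools 2 and 3 stood between 7.59 and 8.94 and whose wild-type pools stood between 9.14 and 10.89. In cldnb, transgenic pools 2 and 3 were nearly level at 7.68 and 7.75, with pool 1 at 4.70.

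Collagen and bone genes of the second kind had the same layout. The collagen I genes col1a1a and col1a2 had transgenic values of 7.37, 9.68 and 10.43 and of 6.14, 8.90 and 9.93, against wild-type values of 11.38 and 11.40 and of 10.95 and 11.03. The collagen X gene col10a1a, known from fish bone and hypertrophic cartilage, had 6.28, 9.01 and 9.63 in the transgenic pools, against 11.35 and 11.27 in the wild-type pools. Its paralogue col10a1b had 4.40, 7.37 and 8.03 in the transgenic pools, against 10.27 and 10.39 in the wild-type pools. The osteopontin gene spp1, for a protein of mineralised matrix, had 3.85, 7.37 and 8.0 in the transgenic pools, against 9.08 and 8.54 in the wild-type pools. A second graded probe set of col1a1a had 5.43, 8.61 and 9.57 in the transgenic pools, against 10.47 and 10.65 in the wild-type pools. Its name differs only in the suffix from that of a runx2a probe set, so assignment to col1a1a is uncertain. Over the graded probe sets of these 4 collagen genes the transgenic pools spanned 3.06 to 4.14, and the difference of wild-type pool 1 minus wild-type pool 2 lay between -0.18 and 0.08.

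Muscle genes that the exclusion by symbol did not cover were also of the second kind. The genes atp2a1 and atp2a1l, for calcium pumps of the sarcoplasmic reticulum, had transgenic values of 5.48, 9.14 and 9.61 and of 6.02, 9.15 and 9.93. Their wild-type values were 11.04 and 11.26 for atp2a1, and 11.11 and 11.57 for atp2a1l. The glycolytic aldolase gene aldoab had 5.66, 8.23 and 8.95 in the transgenic pools, against 10.25 and 10.68 in the wild-type pools. The alpha-actin gene actc1b had 8.67, 10.83 and 11.90 in the transgenic pools, against 12.69 and 12.74 in the wild-type pools. The symbol mid1ip1a was in the same kind, with 3.96, 7.34 and 8.21 in the transgenic pools, against 9.64 and 9.30 in the wild-type pools, as were mala.2 and mllt11.

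**Figure D3:**
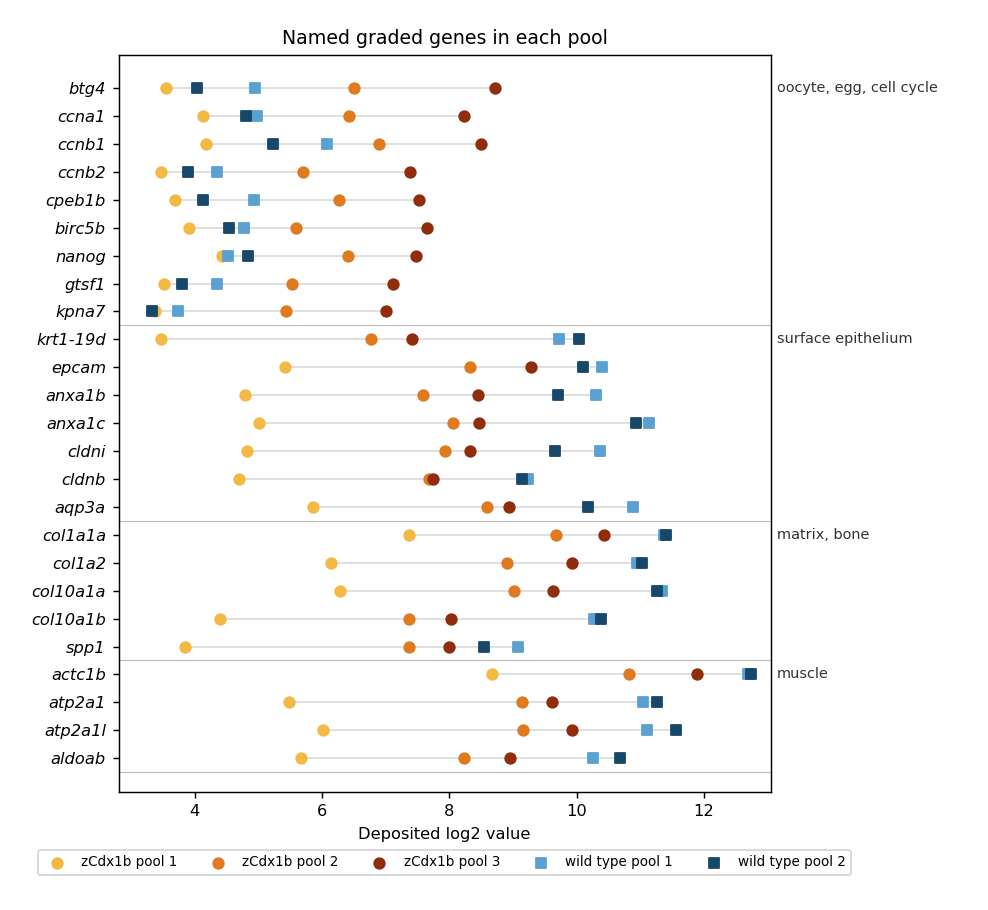
Deposited log2 values of 25 named graded genes, 1 probe set per gene, with transgenic pools as circles and wild-type pools as squares. In the oocyte, egg and cell cycle genes both wild-type squares lie left of transgenic pool 2, whereas in the surface epithelium, matrix, bone and muscle genes they lie to the right of every transgenic circle.

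Levels between the transgenic and wild-type groups were compared over all 10335 probe sets that passed a filter on low values, with limma and Benjamini-Hochberg adjustment. A total of 21.8% of them passed an adjusted p of 0.05, 10.1% higher and 11.7% lower in transgenic pools. All 160 graded probe sets passed the filter, and 4 of them were called, all lower in transgenic pools and all of the second kind. The rule used the transgenic values of this contrast and chose pools that differ widely, so nothing is read from this count. The called gene with a symbol was anxa1c, which fell by 3.86 on the log2 scale (limma SE 1.01, adjusted p = 0.0419). The others were si:dkey-247k7.2, which fell by 4.03, and a pair of probe sets with no symbol, which fell by 3.54 and 3.51 (limma adjusted p = 0.0432, 0.0456 and 0.0433). These 3 were chosen after their values were seen. Just past the threshold were col10a1b, with a log2 change of -3.73, and krt1-19d, with -4.0 (limma adjusted p = 0.0501 and 0.0535). None was called higher by limma, and at an unadjusted p below 0.05 the counts were 0 higher and 29 lower. The share of all tested probe sets at that unadjusted level is not given here. Nothing is therefore read from these unadjusted counts or from those of the marker lists below. No member was called when either wild-type pool was left out, 2 were called without transgenic pool 2, 26 without transgenic pool 3 and 114 without transgenic pool 1 (84 higher and 30 lower). In the same fits limma called 20.2% of all tested probe sets without wild-type pool 1, 25.3% without wild-type pool 2, 9.47% without transgenic pool 2 and 17.4% without transgenic pool 3. Without transgenic pool 1 it called 17.2%, with 9.4% higher and 7.82% lower. The rule set pool 1 at least 3 units below pool 3, so leaving out either removes chosen spread from the transgenic group. Nothing is therefore read from the counts of graded probe sets with a pool left out. The call for anxa1c had an adjusted p of 0.156 when wild-type pool 1 was left out and 0.134 when wild-type pool 2 was.

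No graded probe set had all 3 transgenic values above both wild-type values, and 34 (21.2%) had all of them below. Over the 10335 tested probe sets those shares were 20.1% and 30.8%. A probe set whose transgenic pools lie at least 3 units apart can enclose the wild-type values more easily than others, so this too is a description.

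The wild-type arrays could be compared with each other for these probe sets without using the rule. Wild-type pool 1 was above wild-type pool 2 in 120 of the 160, with a median difference of 0.35. In the first kind it was above in 98 of 120, with a median of 0.43, and in the second in 16 of 34, with a median of -0.03. Over all probe sets it was above in 48.4%, with a median of -0.03. The largest such differences among named genes were 2.19 for lyz, 1.62 for the ubiquitin hydrolase gene uchl1, 1.29 for tmsb5 and 1.26 for both mpv17 and cdca7a, all higher in wild-type pool 1, whereas slc16a3b was 1.12 lower there. With 1 array each, these differences have no replicate check. The array of wild-type pool 2 also had the highest background bound, 4.13 against 3.64 in wild-type pool 1, and the lowest share of probe sets above the bound, 62.4% against 71.0%, and the part of this in the difference was not tested.

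The probe sets left out by symbol had the same 2 layouts. All 24 of the egg and oocyte symbols had wild type between transgenic pools 1 and 3, with differences between pools 3 and 1 of 3.77 to 6.09 and a median of 5.1. Of the 17 muscle probe sets, 11 had wild type above pool 3, 5 had it between and 1 had neither. The egg probe sets made up 0.0318%, 0.522% and 1.31% of the summed linear signal in transgenic pools 1, 2 and 3, against 0.219% and 0.263% in the wild-type pools. For the muscle probe sets the shares were 0.0773%, 0.511% and 1.04% in the transgenic pools, against 1.71% and 1.92% in the wild-type pools. Both shares were lowest in transgenic pool 1. The wild-type shares lay below that of transgenic pool 2 for the egg probe sets and above that of transgenic pool 3 for the muscle probe sets, and their part in the graded set was not tested. The parvalbumin genes pvalb2 and pvalb1, for calcium-binding proteins of fast muscle, were high in transgenic pool 3 alone. For pvalb2 the values were 3.55, 4.71 and 10.35 in the transgenic pools, against 3.63 and 4.54 in the wild-type pools. For pvalb1 they were 3.27, 4.15 and 9.19 in the transgenic pools, against 3.41 and 4.7 in the wild-type pools.

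Marker lists were read for the order of the transgenic pools, with and without the graded genes, which have it by the rule. Over all probe sets 21.0% had it. Of 51 measured oocyte and egg genes outside the excluded symbols, 10 were graded, 34 (66.7%) had the same order of the transgenic pools, and the median difference between pools 3 and 1 was 1.27, against -0.14 over all probe sets. Without the graded genes it was 24 of 41 (58.5%), with a median of 0.51. The graded ones were btg4, ccna1, ccnb1, ccnb2, birc5b, cpeb1b, nanog, org, pou5f3 and slbp2. By limma, 2 of the 37 tested rose in transgenic pools and 0 fell, and at an unadjusted p below 0.05 the counts were 2 higher and 1 lower. The summed linear signal of the list was 4420, 5140 and 7510 in transgenic pools 1, 2 and 3, against 1970 and 1700 in the wild-type pools. Without the cathepsin gene ctsl.1, singled out after its values were seen because it dominated the transgenic sums, they were 1290, 2310 and 5120 in the transgenic pools, against 1950 and 1690 in the wild-type pools. At or below the bound were 30, 13 and 10 of the 51 in the transgenic pools, against 20 and 28 in the wild-type pools.

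Other genes of the oocyte and egg list were not graded, although 24 of these 41 had the order of the transgenic pools. Among them mos and wee2, singled out after their values were seen, had pool 3 above pool 1 by 2.88 and 2.83. The oocyte transcription factor gene nobox, the synaptonemal complex genes sycp1 and sycp3 and the gonadal aromatase gene cyp19a1a, singled out after their values were seen, stayed between log2 values of 3.21 and 3.55 in the transgenic pools and between 2.88 and 3.79 in the wild-type pools. All of these values were below the background bound of their array, so they cannot show whether these genes differed between pools. Some listed genes above the bound on every array also lacked the order, among them rnf41, tmem39a and dnd1, singled out after their values were seen. In the transgenic pools rnf41 had 5.96, 5.78 and 5.87, tmem39a 4.85, 4.70 and 4.78, and dnd1 5.86, 5.62 and 5.70. The germ-cell helicase gene ddx4, likewise singled out, had 3.64, 3.85 and 4.14 in the transgenic pools, against 3.45 and 3.73 in the wild-type pools. The steroidogenic gene star, also chosen after its values were seen, was high in a single pool, with 3.66, 3.62 and 7.33 in the transgenic pools, against 4.11 and 3.76 in the wild-type pools. It met the minimum difference and level, and it was left out because its pool 2 value lay below that of pool 1.

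Genes of the cell cycle had the order too. Of 39 measured, 33 (84.6%) had it, with a median difference of 1.12, and 3 were graded, namely ccnb1, ccnb2 and birc5b, which the oocyte list also holds. Without them 30 of 36 (83.3%) had the order, with a median of 0.98. The oocyte list also holds pcna, cdc20, plk1, aurka and bub1bb, so the shares of these lists are not separate observations. The summed linear signal of the cell cycle list was 1070, 1670 and 3050 in the transgenic pools, against 2380 and 1490 in the wild-type pools. At or below the bound were 18, 3 and 3 of the 39 in the transgenic pools, against 2 and 14 in the wild-type pools. Wild-type pool 1 was above wild-type pool 2 in 32 of the 39. By limma, 0 of 34 tested rose and 0 fell, and at an unadjusted p below 0.05 the counts were 0 and 0.

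The order was also found in lists of the tissues seen in the second kind. Of 40 squamous epithelium genes, 31 (77.5%) had it, with a median difference of 1.11, and 5 were graded, namely epcam, anxa1b, cldni, anxa1c and cldnb. Of the 35 others, 26 (74.3%) had the order, with a median of 0.98. The limma test had 0 of these 40 higher and 35 lower in transgenic pools, and at an unadjusted p below 0.05 the counts were 0 and 39. The summed linear signal of the list was 13000, 22500 and 25600 in the transgenic pools, against 78500 and 77000 in the wild-type pools. Among 41 striated muscle genes outside the excluded symbols, 31 (75.6%) had the order, with a median of 1.04, and 4 were graded. Without those 4, it was 27 of 37 (73.0%), with a median of 0.83. By limma 2 of the 40 tested rose and 20 fell in transgenic pools. Their summed signal was 11300, 16300 and 20200 in the transgenic pools, against 35900 and 38600 in the wild-type pools. The order was present in 12 of 18 matrix and fibroblast genes, with 2 graded, and in 10 of 20 genes of cartilage, bone and tooth, with 2 graded. Without the graded genes it was present in 10 of 16 and 8 of 18, with medians of 0.99 and 0.46. In the matrix list limma called 0 of 16 higher and 7 lower, with 2 and 13 at an unadjusted p below 0.05, and in the bone list 0 of 12 higher and 1 lower, with 0 and 7. The summed signal of the matrix list was 1460, 2900 and 4180 in the transgenic pools, against 7990 and 7270 in the wild-type pools, and that of the bone list was 570, 1660 and 2450, against 6260 and 5540. How far these tissues account for the graded set was not tested.

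Most measured genes of the erythrocyte and leukocyte lists had the order, and only lyz among them met the rule. Of 11 erythrocyte genes, 7 had it, with a median difference of 1.2, and 0 were graded. The anion exchanger gene slc4a1a, at 2.98, was just outside the minimum difference. By limma 0 of 9 tested rose and 0 fell, with 1 higher and 0 lower at an unadjusted p below 0.05. The list's summed signal was 3040, 4700 and 7900 in the transgenic pools, against 7150 and 2480 in the wild-type pools. Of 16 leukocyte genes, 10 had the order and 1, lyz, was graded, which leaves 9 of 15 without it.

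Most listed genes of intestine, pancreas and liver lay outside the pattern. The gene chia.4, named like chia.1, chia.2 and chia.3 of the intestinal list but not on it, was graded. It had 4.14, 6.28 and 7.41 in the transgenic pools, against 4.25 and 3.99 in the wild-type pools. Only 1 of 23 intestinal absorptive genes had the order, against 0 of 17 of the exocrine pancreas and 0 of 28 of hepatocytes, and their median differences between pools 3 and 1 were -0.43, -0.29 and -0.53. By limma, 21, 16 and 25 of the genes tested in these 3 lists rose in transgenic pools, out of 23, 16 and 28. Their summed signals were 64500, 60800 and 55100 for intestine in the transgenic pools, against 687 and 597 in the wild-type pools. For pancreas they were 83400, 78400 and 72000 in the transgenic pools, against 258 and 325 in the wild-type pools. These sums were lowest in the transgenic pool where the graded probe sets were highest. The lists of testis and sperm and of eye and lens had the order in 1 of 9 and 0 of 10 genes. In transgenic pools 1, 2 and 3, 8, 7 and 7 of these testis genes were at or below the bound. For the eye genes it was 9 in each transgenic pool, so the lack of the order in these lists is not informative.

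**Figure D4:**
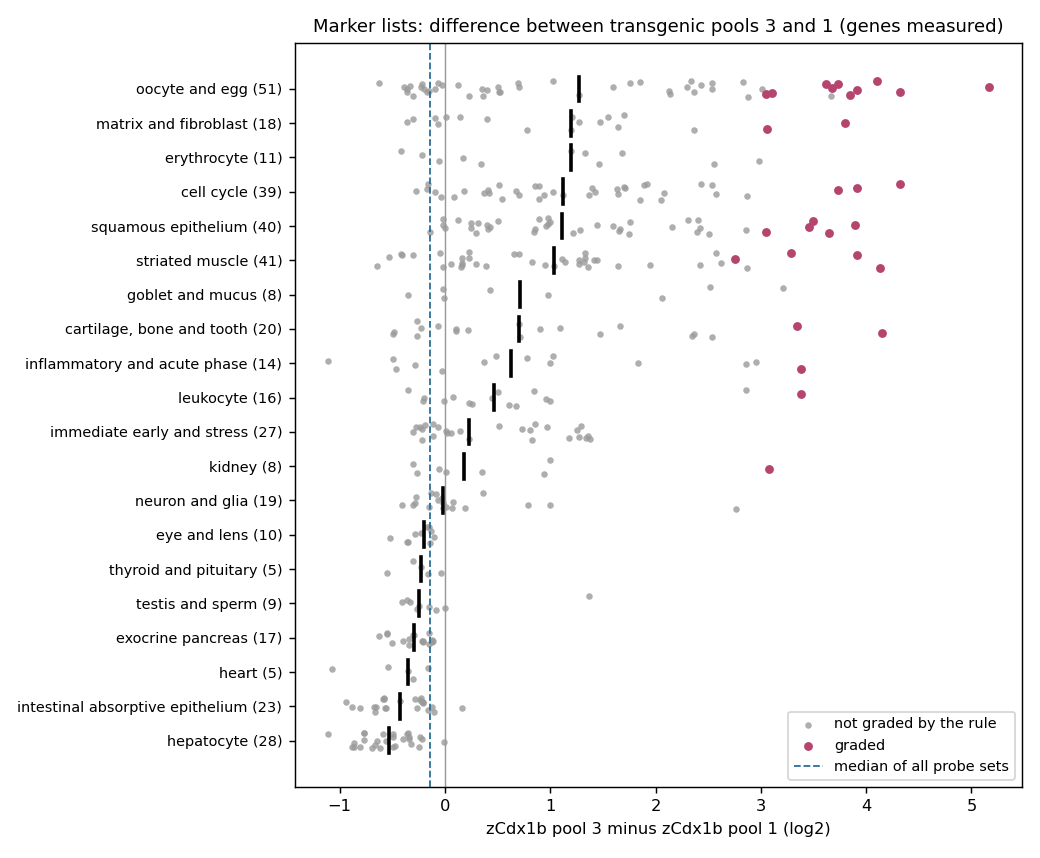
Difference between transgenic pools 3 and 1, in log2 units, for each measured gene of the marker lists with at least 5 measured genes, with the number measured in parentheses. Coloured points are genes with a graded probe set, black bars are list medians and the dashed line is the median of all probe sets, -0.14. The oocyte, matrix, erythrocyte, cell cycle, squamous and striated muscle lists have medians above 1 with their graded genes included, whereas intestine, exocrine pancreas and hepatocyte genes lie mostly below 0. The point shown is the brightest probe set of a gene, which for actc1b is not the graded one.

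The graded probe sets shared features of design on the array. Probe sets whose name ends in _x_at, which contain probes that can match other sequences, made up 19.4% of them, against 2.01% of all probe sets. Those ending in _s_at or _a_at, which match several transcripts of one or more genes, made up 5.0% and 7.5%, against 1.03% and 2.88% of all. Grouped by the stem of the probe set name, which on this array follows a UniGene cluster, the 160 fell into 117 clusters, and 16 clusters with more than 1 graded probe set held 59. The largest held 11 graded probe sets of 23 on the array, all of the first kind. The next held 8 of 12, also all of the first kind. Probe sets of one cluster can share target sequence and are not independent, so counts of genes are given beside counts of probe sets. With 1 probe set per gene, wild type lay between in 64 of 93 and above in 26.

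Some symbols were not borne out by the other probe sets of the same gene. In 11 graded genes, 16 further probe sets were on the array, and 8 of the 16 had the same order. The claudin gene cldng had 4.36, 7.66 and 9.02 in the transgenic pools, against 5.61 and 5.57 in the wild-type pools on its graded probe set, whereas its 3 others ranged from 9.22 to 10.65 in the transgenic pools and from 10.01 to 11.94 in the wild-type pools. The spectrin gene sptan1 had 4.40, 7.86 and 9.18 in the transgenic pools, against 5.99 and 5.73 in the wild-type pools on a graded _x_at probe set of that largest cluster. Its other probe set had 8.78, 8.49 and 8.23 in the transgenic pools, against 8.10 and 7.84 in the wild-type pools. For mpv17, mllt11 and actc1b at least 1 other probe set also lacked the order. In mpv17 and mllt11 that probe set was below the background bound in every transgenic pool, so it cannot show an order. In actc1b, 1 probe set without the order had 7.21, 6.88 and 6.41 in the transgenic pools, against 2.67 and 2.84 in the wild-type pools. That relation of the groups is the reverse of the graded one. Another actc1b probe set had the graded layout, with 9.16, 11.06 and 11.91 in the transgenic pools, against 12.8 and 12.9 in the wild-type pools. The values of cldng, sptan1 and actc1b are therefore those of the named probe sets, and assignment to the gene is uncertain. For mpv17 and mllt11 the assignment had no usable check, so it stays uncertain too. By contrast, the other probe sets of krt1-19d, epcam, cldn7b and gtf3ab had the same order. The graded epcam probe set shares its cluster with probe sets of icn and icn2. Another graded probe set of that cluster, without a symbol, had 6.03, 8.75 and 9.22 in the transgenic pools, against 10.22 and 9.2 in the wild-type pools.

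In the gene order of the GRCz12tu assembly, 88 graded genes could be placed, and 6 pairs lay within 3 genes of each other. The annexin genes anxa1b and anxa1c were adjacent and both of the second kind. The alpha-2-macroglobulin family genes a2m3a and a2m3g lay 3 genes apart and both were of the first kind. The graded probe sets of a2m3g belong to the largest cluster, like that of sptan1, so their assignment to the gene is uncertain too. The genes marcksb and col10a1a were adjacent and of different kinds, with marcksb at 4.89, 6.72 and 8.02 in the transgenic pools, against 6.76 and 6.0 in the wild-type pools.

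The edges of the rule were populated by similar genes. Just inside the minimum difference were mllt11, nanog, cldnb and col1a1a, at 3.04 to 3.06, and just outside were slc4a1a, gmnn, mad2l1 and apnl, at 2.98 to 2.93. Just inside the minimum level in pool 3 were kpna7 at 7.01 and gtsf1 at 7.11, and just outside were avd at 6.96 and npm2b at 6.85. The gene npm2b encodes nucleoplasmin of the oocyte nucleus, gmnn the replication inhibitor geminin and mad2l1 a spindle checkpoint protein. The values of these genes decide the membership only through the thresholds, and no test was made across them.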

How the data were processed

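The values analysed were log2 expression values deposited by the authors, 1 per probe set and array, for 3 transgenic and 2 wild-type pools. The submitters' processing notes name MAS5, with its version and log step not given in the sources used here. Base 2 was read off the range of the values. Probe sets were named from GEO's platform annotation, updated through Entrez identifiers against RefSeq's GRCz12tu gene table; 10795 of 15502 probe sets had 1 symbol, 135 several and 4572 none. The 115 control probe sets were left out.

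The group comparison used limma 3.58.1 in R 4.3.3 (lmFit, then eBayes with a trend, two-sided, Benjamini-Hochberg threshold 0.05), over probe sets that reached the 40th percentile on 2 arrays or more. The procedure was tested on simulated data. That simulation gave every probe set the same spread, taken from the wild-type arrays. It therefore does not cover the wide transgenic spread of the graded probe sets. Where a group's arrays lie at or below background a change is a fitted value. Marker lists (22) had a gene represented by its brightest probe set.

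Named genes were those with the largest difference between transgenic pools 3 and 1, the leading ones of each list, of each wild-type position, of the limma calls and of the difference between wild-type arrays, and those next to a threshold. Outside that rule, gdf3, pou5f3, org, slbp2, cldn7b, a2m3g and marcksb were picked once their values were known. The members and lists were chosen with earlier results of these data known. Alternatives covered normalization, filter, variance model, thresholds, probe set choice, the replicate number as a block and each array left out in turn.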

Additional observations from a re-analysis of the deposited data

How the results depend on the processing

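The number of graded probe sets was 160, and it was 86 with a minimum difference of 4, 102 with a minimum level of 8 and 93 when genes were counted. Under the other alternatives it lay between 109 with only _at probe sets (chosen after seeing the data) and 201 with no symbol left out, and 145 of the 146 found after quantile normalization were shared with it. Wild type lay between the pools in 120 probe sets, in 64 with 1 probe set per gene and in 65 without clusters that hold more than 1 graded probe set (chosen after seeing the data), which in each case leaves fewer probe sets. Leaving out 1 wild-type array gave 123 between and 34 to 37 above. The count of graded probe sets called by limma was 4, and it was 8 after quantile normalization, 7 after median centring, 7 with a 60th percentile filter, 1 without a variance trend, 0 with a robust trend and 18 at a threshold of 0.1. The shares of all tested probe sets called were, in the same order, 21.8%, 25.9%, 20.1%, 29.8%, 21.2%, 21.8% and 30.5%. Leaving out 1 transgenic array gave 2 to 114 calls of graded probe sets. Over all probe sets the calls numbered 2250, and 979 to 2614 with 1 array left out, the lowest without transgenic pool 2. The rule chose the transgenic values of the graded probe sets, so nothing is read from changes in the count of their calls. The causes of the other changes were not tested. All 4 calls kept their direction under the alternatives run. Every transgenic value of these 4 lay below both wild-type values, so the direction could hardly change and this is not a check.

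With the replicate number as a block, 43 graded probe sets were called, 2 higher and 41 lower. That fit called 18.1% of all tested probe sets, 9.04% higher and 9.02% lower. The block gives transgenic pool 3, which has no wild-type partner, its own level. Deviations of same-numbered pools from their group means correlated at -0.302 and -0.177 over genes. With 2 wild-type arrays, these deviations mirror each other by construction. The values therefore cannot decide whether same-numbered pools share more than a number.

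Precision is limited by 5 arrays, 2 of them wild type. Pool 1 values at background limit the size of 69 differences. No coordinates or sequences are given.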
